A study of Mus musculus with 6 samples.

Results

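Ribosome biogenesis and the metabolism that feeds it were examined through 38 genes, 38 of the 25206 rows of the expression table. They were taken from a list of symbols, matched to rows by Entrez gene number, and all 38 had a row. The list holds nucleolar processing factors, subunits of RNA polymerase I, and enzymes of polyamine and nucleotide synthesis, genes known as targets of the transcription factor MYC. The list was drawn up by name, with earlier results of these data known. The cells were lines of group 2 innate lymphoid cells (ILC2s), lymphocytes without antigen receptors that make type 2 cytokines, from C57BL/6J mice. Both groups grew in IL-2 and IL-33, each at 10 ng/ml, and both received a lentiviral CRISPR construct with GFP. In the knockout group (3 arrays) the guide was directed at Cbfb, which encodes CBFβ, the partner of the RUNX transcription factors, and in the control group (3 arrays) it had no target. Cells with GFP were collected by sorting on day 6 after transduction. Such a sorted population can mix edited and unedited cells, and the labels say neither whether the 3 samples of a group were separate cultures nor how many lines or guides were used. P-values therefore rest on the spread among these samples alone, and that spread may be technical.

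A ribosome is assembled in the nucleolus, where RNA polymerase I transcribes a long precursor of the ribosomal RNAs. Small nucleolar ribonucleoproteins (snoRNPs) of the box C/D class guide methylation of this precursor, and those of the box H/ACA class guide its conversion of uridine to pseudouridine. The small subunit processome then folds and cuts the part that becomes the small subunit, while other factors mature the large subunit. MYC raises the transcription of many of these genes in growing cells, lymphocytes included.

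Values are on a log2 scale, with array medians between 3.57 and 3.63, and a difference of 1 is a doubling of the normalised signal. Precision is limited by the number of arrays. The control means of the 38 genes lay between the 72.8th and the 99th percentile of all rows, so none read near the bottom of the scale. Cbfb fell from 8.65 ± 0.11 to 7.83 ± 0.12 (SD, n = 3 arrays; limma adjusted p = 0.00205), and its arrays did not overlap. Of 12 measured ILC2 markers, 9 had a control mean above 3.6 (the middle value of the group means over all rows), and the others were Rora, Thy1 and Il17rb. Of these 12 markers Icos (change -0.78), Il7r (-0.56) and Il5 (-0.33) fell, Rora rose (2.22) and 8 did not pass, and Il5 missed the threshold in all 6 leave-one-out fits. Control means were at or under 3.6 for 6 of 9 T cell markers, 6 of 6 B cell markers, 7 of 8 macrophage and dendritic cell markers and 8 of 9 mast cell and basophil markers. The mean level of the T cell markers was 3.70 to 3.79 in the control and 3.56 to 3.66 in the knockout arrays, with Trac (5.68 in the control) the highest. Of the T cell markers Trac alone passed the test, with a change of -0.61, and the median change of the 9 was 0.01. That of the mast cell and basophil markers was 2.89 to 3.0 and 2.51 to 2.71, where Cpa3 alone passed the test, with a change of -2.91. For B cells the mean level was 2.51 to 2.55 and 2.50 to 2.62, and for macrophages and dendritic cells it was 3.11 to 3.17 and 3.05 to 3.22. The part of these differences in the results below was not tested.

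Of the 38 genes, 11 fell in the knockout, none rose and 27 did not pass the test (limma, Benjamini-Hochberg adjusted p under 0.05 over all rows). The 11 were Nop58, Fbl, Gar1, Wdr43, Tsr1, Ddx10, Rrs1, Rrp1b, Ncl, Gnl3 and Ddx21, which together cover snoRNPs, both subunits and abundant nucleolar proteins. Between 67.2% and 78.8% of their control signal was left. In bulk RNA of a sorted population, fewer cells of a type and less RNA per cell cannot be told apart. The share called lower was 28.9% of the 38 genes against 4.24% of all rows (5.51% were called higher), and 10.3% of the 7056 rows that read at least as high as the lowest of the 38. At an unadjusted p under 0.05, 23 genes were lower and 0 higher, but the share of all rows at that threshold was not counted. The median change of the 38 genes was -0.29 on the log2 scale, or 82.1% of the control signal, against -0.01 over all rows. The mean was lower in the knockout for 35 genes, where 51.5% of all rows had a lower mean, and it was higher for Polr1a, Odc1 and Cad.

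The 3 knockout arrays lay wholly below the 3 control arrays in 25 of the 38 genes, or 65.8%, where 13.4% of all rows and 27.6% of the rows at that level did so. They lay wholly above in 1 gene, Cad (14.1% of all rows), and the groups overlapped in 12. Averaged over the 38 genes, knockout replicates 1, 2 and 3 stood at -0.213, -0.212 and -0.324 from the control mean, and 36, 32 and 36 of the genes were below it. The control arrays stood at -0.00728, -0.0057 and 0.013. Across the 38 genes the change had a Pearson correlation of -0.128 and a Spearman correlation of -0.106 with the control level, a description over genes that share the same arrays.

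The count of genes that fell depended on each array and on the test. It was 6, 4 and 6 when control replicate 1, 2 or 3 was left out, and 9, 5 and 5 when knockout replicate 1, 2 or 3 was. It was 19 both when only rows above the median level were tested and with a trended and robust prior. The count of all rows that fell also rose in these settings, from 1068 to 1564 and 1626. Leaving out each array in turn gave 6 leave-one-out fits, and Rrp1b and Nop58 passed in all 6. Wdr43 missed the threshold without control replicate 3 (adjusted p = 0.0503), and Ddx10 and Ddx21 missed it without control replicate 2 (adjusted p = 0.0526 and 0.0597).

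**Figure D1:**
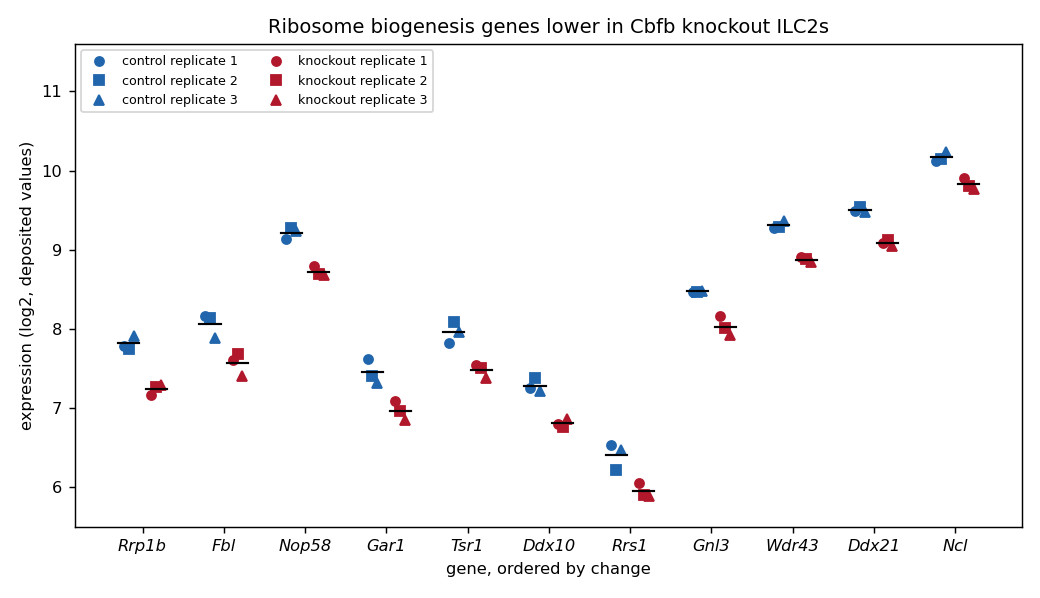
Expression of the 11 genes that passed the test, on the log2 scale of the deposited values, with a point for each of the 3 control (blue) and 3 knockout (red) arrays and a bar at each group mean. In every one of the 11 genes the knockout arrays lie below the control arrays.

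Among the core proteins of box C/D snoRNPs, Nop58 and Fbl fell and Nop56 did not pass. Nop58, a scaffold protein of these particles, read 9.14, 9.27 and 9.24 in the control and 8.79, 8.70 and 8.68 in the knockout. All knockout arrays were lower by at least 0.35, and the signal fell to 71% of the control (95% interval 62.3% to 81%; change -0.49, SE 0.083, limma adjusted p = 0.00895). Fbl encodes fibrillarin, the methyltransferase of the particle, and it read 8.16, 8.14 and 7.88 against 7.61, 7.68 and 7.40. The third array was the lowest in both groups, and the groups did not overlap (change -0.50, SE 0.11, adjusted p = 0.0311). Among the leave-one-out fits, Fbl passed only without control replicate 3 (adjusted p 0.0311 to 0.111 over the 6). Nop56, the other scaffold of the same particle, read 10.18, 10.09 and 10.09 against 10.0, 9.99 and 9.96. These arrays did not overlap either, but the difference of -0.14 was small (95% interval -0.32 to 0.04; adjusted p = 0.36). Whether Nop56 and Nop58 changed by different amounts was not tested.

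Of the box H/ACA proteins and their chaperone, Gar1 fell and Dkc1, Nhp2 and Nolc1 did not pass, though the arrays did not overlap in any of the 4. Gar1, a small core protein of the particle, read 7.62, 7.41 and 7.32 in the control and 7.09, 6.96 and 6.85 in the knockout (change -0.48, SE 0.11, limma adjusted p = 0.0283). The lowest control array was 0.23 above the highest knockout array. Without control replicate 1, control replicate 2, knockout replicate 2 or knockout replicate 3 Gar1 missed the threshold (adjusted p 0.0398 to 0.0921 over the 6 fits). Dkc1 encodes dyskerin, the pseudouridine synthase, and differed by -0.20 (adjusted p = 0.202), and Nhp2, another core protein, by -0.25 (adjusted p = 0.117). Nolc1, whose product Nopp140 accompanies snoRNPs to the nucleolus, read 8.56, 8.45 and 8.37 against 8.11, 8.23 and 8.04 (difference -0.33, adjusted p = 0.0616).

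In the small subunit group 3 of 10 genes fell and 7 did not pass, with a median of -0.29. Wdr43, a processome protein, read 9.27, 9.29 and 9.36 in the control and 8.91, 8.88 and 8.84 in the knockout. The arrays within each group were close, and the groups were 0.36 apart (change -0.43, SE 0.078, limma adjusted p = 0.0121). Ddx10, a DEAD-box helicase gene, read 7.25, 7.38 and 7.21 against 6.80, 6.76 and 6.86, with 0.35 between the groups (change -0.47, adjusted p = 0.0117). Tsr1, a factor of late small subunit maturation that resembles a GTPase, read 7.82, 8.09 and 7.96 against 7.55, 7.50 and 7.38 (change -0.48, SE 0.099, adjusted p = 0.0201). Tsr1 passed without control replicate 1 and without knockout replicate 1 but in none of the other leave-one-out fits (adjusted p 0.0244 to 0.0781 over the 6).

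The 7 other small subunit genes ranged from -0.33 to -0.04. Nop14, a processome protein, read 8.12, 8.14 and 8.09 against 7.91, 7.77 and 7.69, without overlap, and just missed the threshold (difference -0.33, adjusted p = 0.0547). Rrp9, a processome protein that binds the U3 snoRNA, differed by -0.28 (adjusted p = 0.0963), Rrp12 by -0.29 (adjusted p = 0.147) and Heatr1 by -0.19 (adjusted p = 0.235). The arrays of these 3 did not overlap. Those of Wdr75 (-0.04), Utp20 (-0.05) and Nob1 (-0.09) did, Nob1 being the endonuclease that makes the final cut of the small subunit RNA. Their 95% intervals ran from -0.22 to 0.14, from -0.25 to 0.14 and from -0.28 to 0.11, so a fall to below 82.3% of the control signal lay outside the interval of each.

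In the large subunit group 2 of 8 genes fell, Rrp1b and Rrs1, with a median of -0.22. Rrp1b, a nucleolar protein gene of large subunit processing, had the largest change of the 38 genes. It read 7.79, 7.75 and 7.91 in the control and 7.17, 7.27 and 7.29 in the knockout, 0.46 between the groups, and 67.2% of the signal was left (95% interval 58.6% to 77%; change -0.57, SE 0.086, limma adjusted p = 0.00547). Rrs1, which helps bring the 5S RNA particle into the large subunit, read 6.53, 6.22 and 6.47 against 6.05, 5.90 and 5.89 (change -0.46, adjusted p = 0.0317). Control replicate 2 was the lowest control array for Rrs1, and the gene passed only without that array or without knockout replicate 1 (adjusted p 0.0278 to 0.104 over the 6 fits).

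Pes1, Bop1 and Wdr12 encode the 3 proteins of the PeBoW complex of large subunit processing, and none passed. Pes1 read 9.06, 9.08 and 8.88 against 8.86, 8.69 and 8.58, with only 0.02 between the groups (difference -0.30, limma adjusted p = 0.127). Bop1 differed by -0.12 (adjusted p = 0.467) and Wdr12 by -0.12 (adjusted p = 0.486), and both overlapped. Ppan, a large subunit factor, differed by -0.30 without overlap (adjusted p = 0.066). Nop2, an RNA methyltransferase gene, differed by -0.15 (adjusted p = 0.396) and Nop16 by -0.09 (adjusted p = 0.678), both with overlap.

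Among abundant nucleolar proteins and regulators 3 of 5 fell, with a median of -0.38. Ncl encodes nucleolin, a major RNA-binding protein of the nucleolus, and had the highest control mean of the 38 genes. It read 10.12, 10.15 and 10.24 against 9.91, 9.80 and 9.77 (change -0.34, SE 0.084, limma adjusted p = 0.0397). The groups were 0.21 apart, but Ncl was not called in any leave-one-out fit (adjusted p 0.0552 to 0.128). Gnl3, the gene of the nucleolar GTPase nucleostemin, read 8.47, 8.47 and 8.48 against 8.16, 8.01 and 7.92 (change -0.44, adjusted p = 0.0183). The control arrays of Gnl3 were nearly equal while the knockout arrays spread over 0.24, and among the leave-one-out fits it passed only without knockout replicate 1 (adjusted p 0.0208 to 0.0667). Ddx21, a helicase gene whose product binds ribosomal DNA and snoRNAs, read 9.49, 9.54 and 9.48 against 9.09, 9.12 and 9.05 (change -0.42, adjusted p = 0.0128).

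The other genes of that group were Npm1 and Mybbp1a. Npm1 encodes nucleophosmin, a chaperone of the outer nucleolus, and read 7.56, 7.88 and 8.07 against 7.69, 7.48 and 7.20. Its spread was wide and the groups overlapped (difference -0.38, 95% interval -0.75 to -0.01, limma adjusted p = 0.21). Npm1 has close copies in the genome, and whether the values tell their transcripts apart was not examined. Mybbp1a, a nucleolar binding partner of transcription factors, read 9.30, 9.27 and 9.32 against 9.10, 9.02 and 8.89, without overlap (difference -0.29, adjusted p = 0.0759).

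None of the 3 subunits of RNA polymerase I on the list passed, and their median was -0.01. Polr1a, which encodes the largest subunit, read 7.65, 7.52 and 7.64 in the control and 7.69, 7.67 and 7.61 in the knockout (difference 0.05, 95% interval -0.13 to 0.24). Polr1b, the second largest subunit, read 6.40, 6.58 and 6.42 against 6.38, 6.37 and 6.22 (difference -0.14, interval -0.35 to 0.07). Polr1c, a subunit shared with RNA polymerase III, read 7.84, 7.98 and 8.06 against 7.93, 8.05 and 7.87 (difference -0.01, interval -0.23 to 0.21). Polr1a and Polr1c overlapped between groups, and Polr1b was separated by 0.02. Limma adjusted p lay between 0.423 and 0.97 for the 3. For Polr1a the interval excludes a fall to the level of Rrp1b (67.2%), since its lower end is 91.1% of the control signal. The lower ends for Polr1b and Polr1c are 78.2% and 85.4%. A fall to the 78.8% left for Ncl, which was called lower, thus lies within the interval of Polr1b. The difference between polymerase and processing genes itself was not tested.

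Of the 5 enzymes of polyamine and nucleotide synthesis none passed, with a median of -0.06 and changes on both sides of 0. Gart, a multifunctional enzyme gene of purine synthesis, read 8.31, 8.16 and 8.18 against 7.93, 7.91 and 7.90 (difference -0.30, limma adjusted p = 0.0553). Ppat, which begins the purine pathway, read 7.68, 7.65 and 7.83 against 7.45, 7.50 and 7.44 (difference -0.26, adjusted p = 0.109). Both purine genes were lower in every knockout array. Cad, which carries the first steps of pyrimidine synthesis, was the reverse, with 8.49, 8.29 and 8.36 against 8.54, 8.61 and 8.56 (difference 0.19, 95% interval -0.01 to 0.39, adjusted p = 0.238). Srm, the spermidine synthase gene, differed by -0.06 (interval -0.24 to 0.12). Odc1 encodes ornithine decarboxylase, which begins polyamine synthesis, and read 6.08, 6.15 and 6.14 against 6.0, 6.69 and 5.92. Knockout replicate 2 was high, the difference was 0.08 (adjusted p = 0.864), and without that array it was -0.16 (adjusted p = 0.403).

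**Figure D2:**
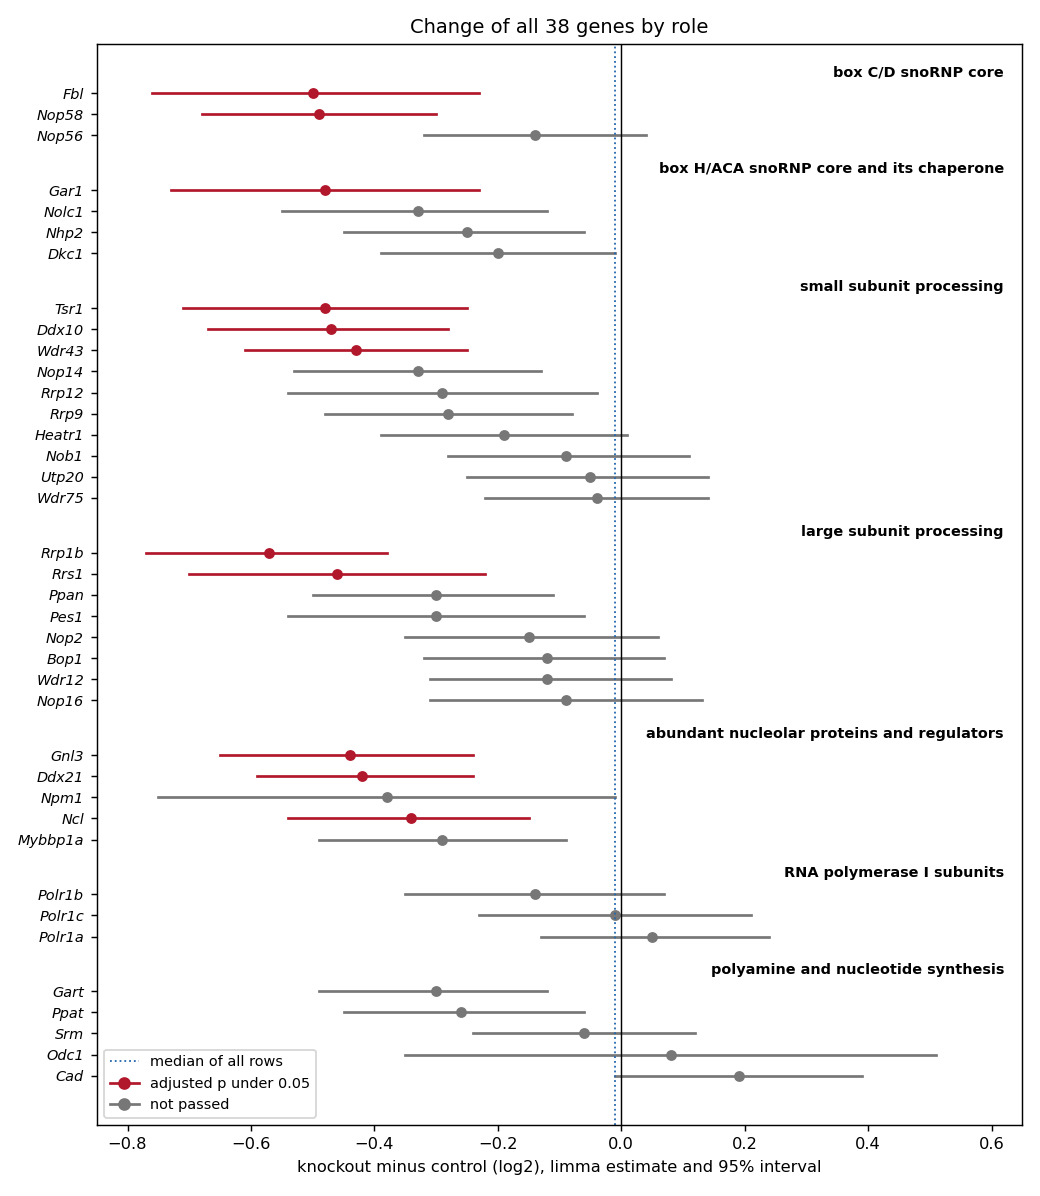
Difference between knockout and control on the log2 scale for each of the 38 genes, with its 95% interval from limma, grouped by role; red marks an adjusted p under 0.05 and the dotted line is the median of all rows (-0.01). The estimates of the snoRNP, small subunit, large subunit and abundant nucleolar genes are all below 0, while those of polymerase I and the synthesis enzymes lie on both sides of it.

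The size of the difference varied between the knockout arrays. Relative to the control mean, the box C/D genes averaged -0.332, -0.342 and -0.452 in knockout replicates 1, 2 and 3, and the abundant nucleolar genes -0.266, -0.37 and -0.49. The small subunit genes averaged -0.228, -0.241 and -0.328, and the large subunit genes -0.232, -0.237 and -0.322. Knockout replicate 3 was the lowest array in each of the 7 groups. The polymerase I genes averaged -0.01, 0.02 and -0.11, and the synthesis enzymes -0.113, 0.0453 and -0.141, ranges that overlap those of the control arrays (-0.0467 to 0.03 and -0.0487 to 0.0253).

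**Figure D3:**
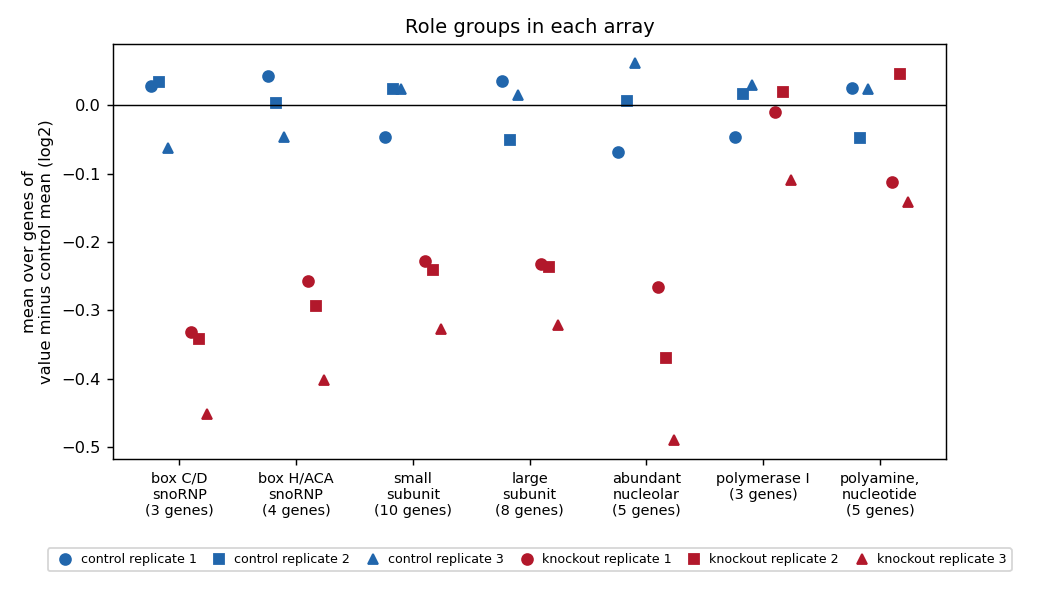
Mean over the genes of each role group of the value minus the control mean (log2), with a point for each control (blue) and knockout (red) array. Knockout arrays lie below all control arrays in 5 of the groups shown and overlap with them for polymerase I and for polyamine and nucleotide synthesis.

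Promoter sequence and gene structure were examined next. The genes were listed by name and not by sequence. They are known MYC targets, however, so a MYC motif in their promoters is not independent of that choice. RefSeq promoter windows of assembly GRCm38.p6, 250 bases before to 50 after the annotated start, were matched for 32 of the 38 genes. Those without a window were Bop1, Fbl, Npm1, Rrp12, Rrs1 and Srm. The motif searched first was the E-box CACGTG, the palindrome that MYC and MAX can bind and that reads the same on both strands. It stood in 6 of 32 windows (18.8%), against 8.09% of 27025 genes with a window and 12.9% of the 5416 such genes that read at least as high on the arrays as the lowest of the 38. Of the genes that fell, 2 of 9 with a window held it, Tsr1 and Wdr43. Its first base stood at -60 in Nop2, 2 in Pes1, 17 in Wdr43, 24 in Tsr1, 37 in Utp20 and 40 in Mybbp1a, counted from the start. The stretches around these 6 matches are shown 5′ to 3′ with the E-box in capitals, so that the flanks can be compared.
Tsr1 (chr11:74898092-74898121, +): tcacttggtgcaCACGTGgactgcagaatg
Wdr43 (chr17:71616220-71616249, +): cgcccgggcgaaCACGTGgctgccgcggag
Pes1 (chr11:3963965-3963994, +): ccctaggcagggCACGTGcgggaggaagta
Nop2 (chr6:125131811-125131840, +): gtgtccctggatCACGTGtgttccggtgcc
Utp20 (chr10:88826765-88826789, -): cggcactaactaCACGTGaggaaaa
Mybbp1a (chr11:72441355-72441376, +): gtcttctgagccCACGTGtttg

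Since CBFβ acts with RUNX proteins, the RUNX core letters TGTGGT and TGCGGT were searched as well, on both strands. TGTGGT stood in 5 of 32 windows, 15.6% against 14.1% of the 5416 genes and 18.9% of all 27025 genes. TGCGGT stood in 6, 18.8% against 11.4% of the 5416 and 7.34% of all genes. One or the other stood in 11 windows, 34.4% against 24.3% of the 5416 and 25% of all 27025 genes. Among the genes that fell, 2 of 9 had a match, Gnl3 and Ddx21, both to TGCGGT. They are shown with the match in capitals, which in Ddx21 reads as the other strand's letters.
Gnl3 (chr14:31019247-31019276, -): tgcagccccggcTGCGGTccccgaccgccg
Ddx21 (chr10:62602353-62602382, -): aaagccgcgcgaACCGCAgccttgccggta
A match is a description of letters and not of binding.

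Rrp1b and Nop58, the genes that passed in every leave-one-out fit, held neither motif in their windows. The 250 bases before their starts are shown for that reason, with no capitals because nothing matched. Rrp1b has 2 annotated windows, and the one with the lower coordinates is given.
Rrp1b (chr17:32035912-32036161, +): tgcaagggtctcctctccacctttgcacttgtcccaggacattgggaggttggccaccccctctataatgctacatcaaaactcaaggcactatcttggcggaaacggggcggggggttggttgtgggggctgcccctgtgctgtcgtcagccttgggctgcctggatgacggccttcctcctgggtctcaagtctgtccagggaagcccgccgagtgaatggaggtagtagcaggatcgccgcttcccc
Nop58 (chr1:59684756-59685005, +): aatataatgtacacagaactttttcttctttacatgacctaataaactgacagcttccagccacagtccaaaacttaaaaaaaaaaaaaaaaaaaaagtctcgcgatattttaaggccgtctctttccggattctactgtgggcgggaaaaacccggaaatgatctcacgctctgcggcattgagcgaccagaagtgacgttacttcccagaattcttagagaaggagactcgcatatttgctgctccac

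The other feature examined was the presence of snoRNA genes, many of which lie in introns of host genes. RefSeq places at least 1 snoRNA gene within the span of 9 of the 38 genes (23.7%), against 372 of 21900 protein-coding genes (1.7%), strand not considered. The share among genes with a signal as high as that of the 38 was not counted. The 9 are Nop58, Nop56, Dkc1, Wdr43, Tsr1, Ppan, Ncl, Gnl3 and Odc1, with 22 snoRNA genes between them. Of these 9 hosts 5 fell, namely Nop58, Wdr43, Tsr1, Ncl and Gnl3, beside 28.9% of all 38 genes, and a link between hosting and the falls was not tested. The snoRNAs inside them include Snord11 and Snord70 in Nop58, Snord53 and Snord92 in Wdr43, Snord91a in Tsr1, Snora75 and Snord82 in Ncl, and Snord19 and Snord69 in Gnl3. The levels of the snoRNAs were not analysed here.

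Other genes of ribosome biogenesis were taken from lists that leave out the 38. Of 138 measured genes 29 fell, 1 rose and 108 did not pass, with a median of -0.19. The share that fell was 21%, against 4.24% of all rows and 10.3% of the 7056 rows that read at least as high as the lowest of the 38, and 136 of the 138 had a control mean above the middle level of all rows. The count of falls was 19, 9 and 11 when control replicate 1, 2 or 3 was left out, and 17, 12 and 13 when knockout replicate 1, 2 or 3 was. It was 53 for rows above the median level and 49 with a trended and robust prior, where 1564 and 1626 rows in all were lower. The largest fall was that of Riok2. Riok2, a kinase gene of late small subunit maturation, read 7.36, 7.54 and 7.48 in the control and 6.69, 6.44 and 6.63 in the knockout, a wider gap than in any of the 38 genes (change -0.87, SE 0.098, limma adjusted p = 0.00159). In that list 14 of 46 small subunit factors fell and none rose (median -0.22), among them Ltv1 (-0.56), Utp15 (-0.50) and Rcl1 (-0.47), and Riok2 and these 3 passed in all 6 leave-one-out fits.

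Of 48 other large subunit factors 7 fell (14.6%), with a median of -0.20. The share lower was 4.24% of all rows and 10.3% of the 7056 rows that read no lower than the lowest of the 38. Gtpbp4, a nucleolar GTPase gene, read 9.38, 9.49 and 9.44 against 8.87, 8.78 and 8.71 (change -0.65, SE 0.084, limma adjusted p = 0.00286). Nmd3, the adaptor that exports the large subunit from the nucleus, changed by -0.56 (adjusted p = 0.00686), Rsl1d1 by -0.38 and Nifk by -0.41. Gtpbp4 and Nmd3 passed in all 6 leave-one-out fits, while Rsl1d1 and Nifk lost their calls in 5 of them. The helicase gene Ddx55, named because it was the 1 gene that rose, changed by 0.34 (adjusted p = 0.0466) and was not called in any leave-one-out fit. In the RNA exosome and its cofactors, which trim and degrade RNA, 4 of 15 fell (26.7%, median -0.20), namely Mphosph6 (-0.57), C1d (-0.38), Exosc9 (-0.36) and Dis3 (-0.36). C1d lost its call in each of these fits and the other 3 in 5 of them. Of 11 other snoRNP genes Nufip1 (-0.44) and Znhit3 (-0.52), both assembly factors of box C/D particles, fell (18.2%, median -0.15). Znhit3 lost its call without control replicate 2 (adjusted p = 0.0519).

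The list of other RNA polymerase I subunits and factors had a median of -0.04, with 2 of 18 lower and none higher (11.1%). It also holds Polr2e, Polr2f, Polr2k and Polr2l, subunits shared with other RNA polymerases, and the factors Tbp, Ttf1 and Top1. Besides Polr1f and Polr1g, its genes with a Polr1 symbol were Polr1d (-0.19), Polr1e (-0.22) and Polr1h (-0.03), which did not pass. Over the whole list the mean was lower in the knockout for 10 genes and higher for 8. The 11.1% was near the 10.3% called lower among the 7056 higher-reading rows described above, and 4.24% of all rows were called lower. Those rows do not match the level of all 18 genes, since Polr2k, Polr2l and Ttf1 had control means of 2.36, 2.74 and 4.2. Polr1f, a subunit gene also known as Twistnb, read 7.81, 7.94 and 7.86 in the control and 7.39, 7.30 and 7.29 in the knockout. Its groups were 0.42 apart, and it passed in all 6 leave-one-out fits (change -0.54, SE 0.082, limma adjusted p = 0.00572). Polr1g, also known as Cd3eap, changed by -0.39 (adjusted p = 0.0399) and lost its call in all 6 (adjusted p 0.0602 to 0.126). Taf1a and Taf1b, subunits of the initiation factor SL1, differed by -0.39 and -0.33 and did not pass (adjusted p = 0.0538 and 0.0719).

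In the remaining metabolism, 7 of 21 other nucleotide synthesis genes fell and none rose (33.3%, median -0.20). Shmt1 and Mthfd1l supply folate-bound carbon units for purines, and they changed by -0.66 (limma adjusted p = 0.00307) and -0.60 (adjusted p = 0.00379). Prps1, which makes the ribose phosphate donor of nucleotide synthesis, read 6.28, 5.98 and 6.04 against 5.49, 5.58 and 5.28 (change -0.65, adjusted p = 0.0116). The purine salvage gene Hprt, listed as Hprt1, changed by -0.62 (adjusted p = 0.015), but lost its call in 4 of the 6 leave-one-out fits. Of 8 other polyamine genes 1 fell (12.5%), namely the spermine synthase gene Sms (-0.49, adjusted p = 0.0352), which lost its call in 4 of these fits. The share called lower was 4.24% of all rows and 10.3% of the 7056 rows that read at least as high as the lowest of the 38. The polyamine share was near the latter.

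Myc read 9.75, 9.91 and 9.88 in the control and 9.53, 9.56 and 9.49 in the knockout (change -0.32, SE 0.083, limma adjusted p = 0.0493). The groups did not overlap, but the call was at the edge of the threshold. It was lost in all leave-one-out fits except that without control replicate 1 (adjusted p 0.0491 to 0.165 over the 6), and also after centring the columns or normalising them again. Mnt, which encodes a repressor that pairs with MAX, read 6.72, 6.55 and 6.12 against 5.26, 5.77 and 5.86 (change -0.83, adjusted p = 0.0343), and it lost its call in 4 of the 6. Of 12 genes of the MYC network these 2 fell and none rose (16.7%, median -0.04), where 4.24% of all rows and 10.3% of the 7056 higher-reading rows were lower. The knockout arrays lay wholly below the control arrays in 4 of the 12 genes and wholly above in 3, against 13.4% and 14.1% of all rows. Mxd1, another repressor that pairs with MAX, differed by 0.28 (adjusted p = 0.10).

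S phase genes, which serve DNA synthesis, also had a median below 0. Of 24 S phase genes 4 fell (16.7%), namely Rrm2 (-0.47), Ccne1 (-0.46), Chaf1b (-0.44) and Tyms (-0.31), and none rose (median -0.23). Called lower were 4.24% of all rows and 10.3% of the 7056 rows that read at least as high as the lowest of the 38. Tyms lost its call in all 6 leave-one-out fits, Rrm2 in 5 and Ccne1 and Chaf1b in 4. The mean of the 24 genes relative to the control was -0.293, -0.215 and -0.113 in knockout replicates 1, 2 and 3. Knockout replicate 1 was thus the lowest array for the S phase genes, while knockout replicate 3 was the lowest for the 38 genes. The part of cell division in the lower values of ribosome biogenesis genes was not tested.

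**Figure D4:**
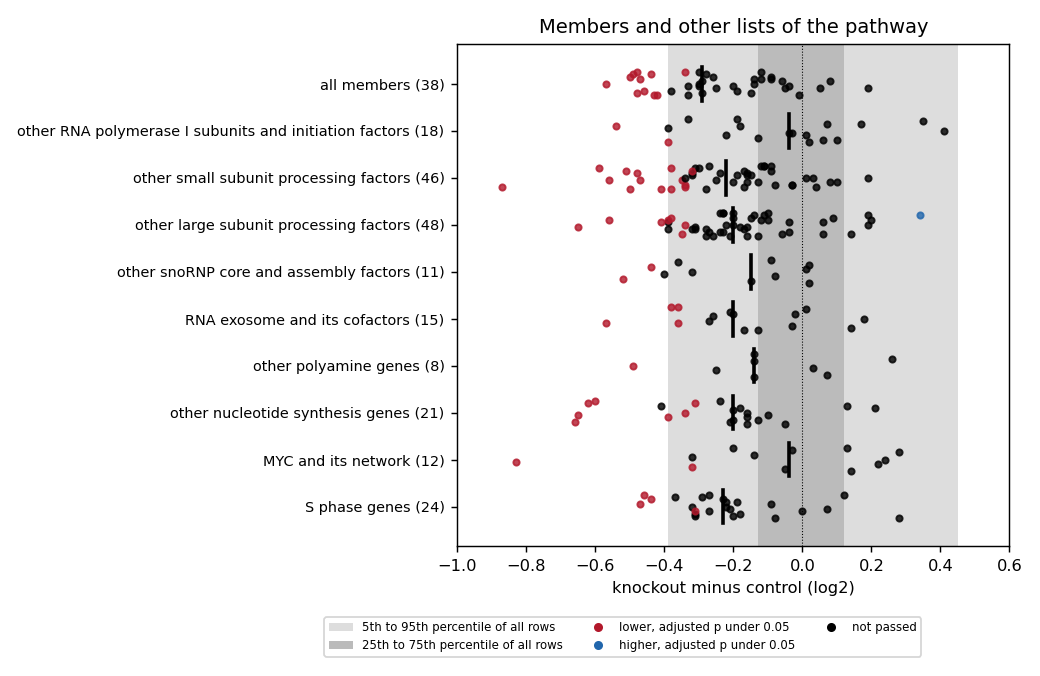
Difference between knockout and control (log2) for each gene of the 38 (first line) and of the other lists, with the number measured in brackets and a black bar at each median; the bands span the 25th to 75th (-0.13 to 0.12) and the 5th to 95th (-0.39 to 0.45) percentiles of all rows. The medians of the 38 genes, the other small and large subunit factors, the exosome, the other nucleotide genes and the S phase genes lie between -0.29 and -0.20. Those of the MYC network and of the other polymerase I list, which includes genes shared with other polymerases, are -0.04.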

How the data were processed

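Total RNA from 6 samples was labelled with biotin and measured on single-channel arrays, per the labels' protocols. The authors deposited log2 expression values. RMA and limma 3.14.4 appear in the submitters' processing notes, with neither role nor order given, and the log2 scale was read from the values (0.66 to 12.51). RMA makes the array distributions nearly equal, which hides any shift common to most genes. Of 25206 rows 23185 have 1 gene symbol, and all were matched by Entrez number to RefSeq (GRCm38.p6). The values were used as deposited, without a filter. The test was limma 3.58.1 (R 4.3.3), knockout minus control, two-sided, with Benjamini-Hochberg adjustment over all rows and a threshold of 0.05, checked on simulated data. Of 297 list entries 285 had a row, 6 through an older symbol or synonym. The genes and lists were chosen with earlier results of these data known, and the lists were not tested as sets. All 38 genes, Cbfb and Myc could be named whatever their result, and up to 4 genes of each other list with the smallest adjusted p. Some other genes were named for a reason given beside them. Alternatives were the replicate block, leaving out each array, renormalising, centring, rows above the median level, a trended and robust prior, array weights, named rows alone, and thresholds of 0.01 and 0.10.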

Additional observations from a re-analysis of the deposited data

How the results depend on the processing

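The direction below 0 held in every fitted alternative for 34 of the 38 genes. The median change of the 38 genes stayed within -0.3 to -0.23 over the fits that left out 1 array, and the count of genes that rose was 0 in them. The count that fell (11) was 4 to 9 in those fits, 19 for rows above the median level, 19 with a trended and robust prior, 2 at a threshold of 0.01 and 17 at 0.10. Over all rows 1068 were lower and 1389 higher. Leaving out 1 array gave 544 to 786 and 763 to 1113, a threshold of 0.01 gave 397 and 569, and the trended and robust prior gave 1626 lower. Rows above the median level gave 1564 lower, and a threshold of 0.10 gave 1592 lower. Of the other pathway genes 39 were lower, 12 to 27 without 1 array, 65 for rows above the median level, 61 with the trended and robust prior and 9 at 0.01. Fewer arrays and fewer rows tested are part of how some of these settings are built, and the cause of the other shifts was not tested. Same-numbered arrays did not deviate together (correlations 0.0249, 0.00669 and 0.0539), not every array correlated best with its own number, and the numbers were not taken as pairs. With the replicate block 9 of the 38 genes, 718 rows and 16 of the other pathway genes were lower. Odc1 (0.08) changed sign without knockout replicate 2, with values of -0.16 to 0.22 over the fits that left out 1 array. Polr1c (-0.01) did so without control replicate 3 and without knockout replicate 3, with -0.07 to 0.04 over them, and with renormalised columns (0.02).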
